A study of Sus scrofa with 102 samples.

Results

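The 6 genes described here, FN1, FBN1, POSTN, MFAP5, SFRP1 and DPP4, encode proteins of the extracellular matrix or proteins that have been used to mark the fibroblast lineage of muscle. They were taken by gene symbol from the probe annotation of the array, and they are 6 of the 2201 genes named by probes with 1 symbol. A total of 7 probes measured them, because FBN1 had 2. Where a gene had several probes, the probe with the highest mean stood for it, and the second FBN1 probe is given as well. RNA came from the Longissimus dorsi, a back muscle, of 102 pigs of a backcross, (Iberian x Landrace) x Landrace. The compared animals were 55 females and 47 males, killed over 3 slaughter batches. There were 14 pigs in batch 1 (8 female, 6 male), 18 in batch 3 (11 female, 7 male) and 70 in batch 2 (36 female, 34 male). All animals carried the same cross and were 171 to 184 days old, with carcasses of 43.6 to 97.8 kg, and the pigs of batch 1 included the youngest, at 171 to 181 days.

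Muscle fibres lie in a matrix made largely by fibroblasts and by fibro-adipogenic progenitors, interstitial cells that in mouse muscle can give rise both to fibroblasts and to adipocytes. Fibronectin (FN1) links matrix to integrins on the cell surface. Fibrillin-1 (FBN1) builds microfibrils, which carry elastin and hold latent TGF-beta, and MFAP5 is a glycoprotein of those microfibrils. Periostin (POSTN) is a matricellular protein that binds collagen and fibronectin. SFRP1 is a secreted protein that binds Wnt ligands, and DPP4 is a serine peptidase of the cell surface that marks a fibroblast progenitor pool in mouse tissues.

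Each array gave 1 value per probe on the log2 scale after GCRMA, in which 1 unit is a doubling of the signal. Probes differ in affinity, so levels are compared only between pigs and not between genes. The arrays correlated with each other at r from 0.600 to 0.977 (median 0.893) over all probes, and no pair of arrays was identical. One array, of a batch 3 male, had a median correlation of 0.748 with the rest and was the only array under 0.8. The Y-linked probe of EIF1AY had a median of 3.26 in females and 10.39 in males, but 7 arrays labelled female lay over 30% of the way from the female to the male median. The sex comparison is therefore also given without them. Slow-fibre genes of the muscle list had mean log2 values of 14.20 for TNNT1, 13.84 for TNNC1, 13.25 for TNNI1 and 11.36 for MYL3. Of the 20 markers fixed for fibroblasts and progenitors beside the 6 genes, 10 had a probe, among them decorin (DCN, mean log2 12.43), gelsolin (GSN, 11.86) and lumican (LUM, 9.91). PDGFRA, the usual defining marker of the progenitors, was not analysed here, so the label of the cell type rests on the genes named. In whole muscle, fewer cells of a type and less RNA per cell cannot be told apart.

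The levels of each gene are given over all pigs. The FN1 probe had a mean of 10.17 ± 0.69 on the log2 scale (SD, n = 102 pigs) and ranged from 7.47 to 11.75. The FBN1 probe had a mean of 9.61 ± 0.74 and ranged from 7.86 to 11.25. MFAP5 had a mean of 8.74 ± 0.75, with a range of 6.06 to 10.62.

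POSTN and DPP4 had the larger SDs of the 6 genes. POSTN had a mean of 5.18 ± 1.16 and ranged from 2.69 to 8.45, and DPP4 had a mean of 4.51 ± 1.21 and ranged from 2.47 to 8.75. Of all probes tested, 5.05% had a larger SD than POSTN and 3.91% a larger SD than DPP4. SFRP1 had a mean of 3.37 ± 0.54 and a median of 3.13, and most pigs lay close together at the low end. Its value exceeded 3.5, a level chosen after the values were seen, in 26 of 102 pigs. Those pigs made up 9 of 14 in batch 1, 9 of 18 in batch 3 and 8 of 70 in batch 2.

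**Figure D1:**
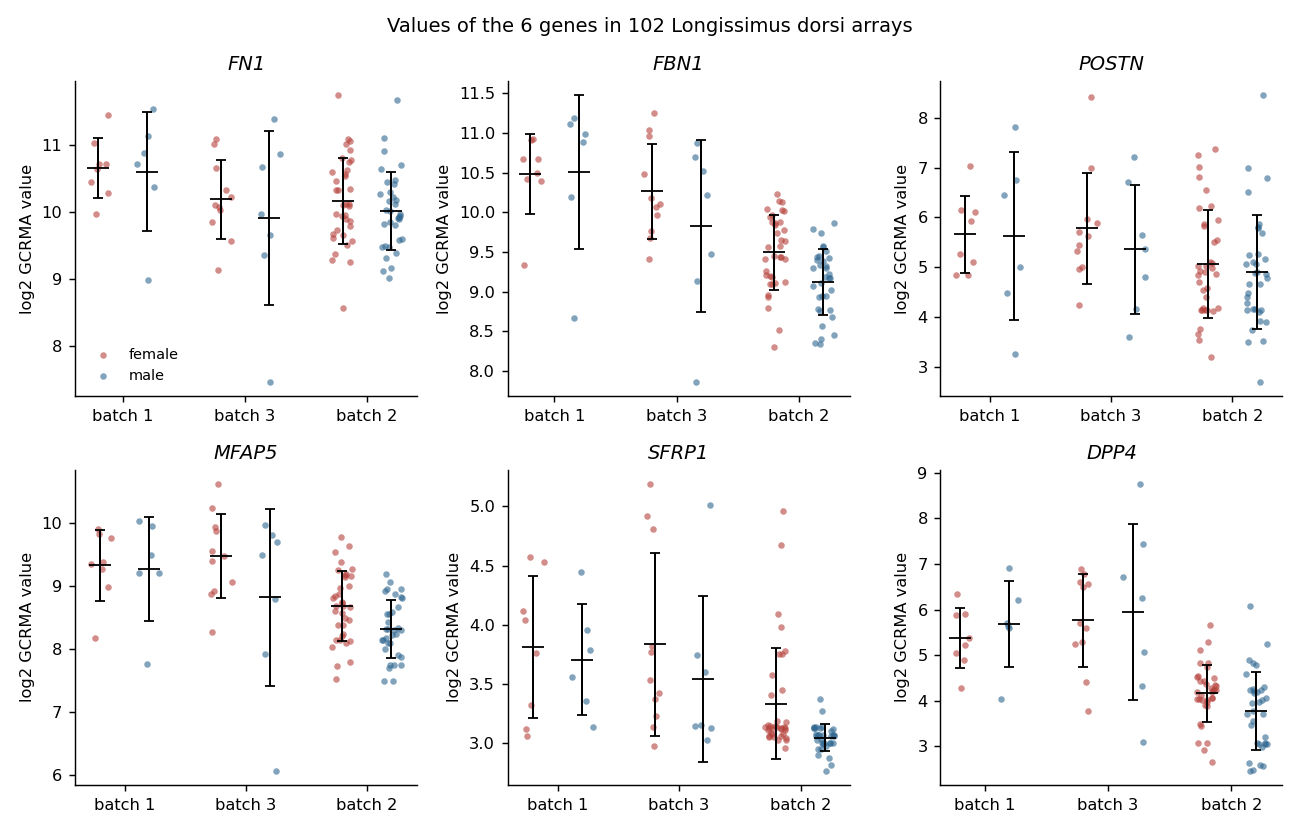
Log2 GCRMA value of each gene (y axes, with a separate range per panel) in every pig, by slaughter batch (x axes) with females left and males right. Points are pigs and the black marks are the mean and SD. FBN1, MFAP5, SFRP1 and DPP4 lie higher in batches 1 and 3 than in batch 2, and 1 male of batch 3 is lowest for FN1 (7.47), FBN1 (7.86) and MFAP5 (6.06).

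The first comparison asked whether females and males differed. Females were higher for FBN1 and MFAP5, by 1.23 and 1.26 times, and for SFRP1, whose values lay close to the floor of the array and for which no fold is given, and the differences of FN1, POSTN and DPP4 did not pass the test. The test was limma's moderated test with slaughter batch and carcass weight in the model and Benjamini-Hochberg adjustment over all 5449 probes, called at an adjusted p under 0.05. It called 3 of the 6 genes, against 26.1% of all probes. The median difference over all probes was -0.03.

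FBN1 ranged from 8.30 to 11.25 in females (median 9.78), against 7.86 to 11.19 in males (median 9.30). The adjusted difference, female minus male, was 0.29 on the log2 scale (SE 0.11, limma adjusted p = 0.0442). MFAP5, its microfibril partner, ranged from 7.52 to 10.62 in females (median 8.92) and from 6.06 to 10.03 in males (median 8.33). Its difference was 0.33 (SE 0.13, limma adjusted p = 0.0449). The sexes overlapped over most of the range of both genes, and both calls lay just under the threshold.

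SFRP1 ranged from 2.96 to 5.19 in females (median 3.15), against 2.77 to 5.01 in males (median 3.07). Its difference was 0.28 (SE 0.09, limma adjusted p = 0.0207). The medians were close, and the difference lay in the upper tail, since 19 of 55 females and 7 of 47 males exceeded 3.5. In batch 2, 8 of 36 females did so and none of the 34 males.

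FN1, POSTN and DPP4 had differences of 0.15, 0.16 and 0.16 on the log2 scale, with 95% intervals of -0.12 to 0.42, -0.29 to 0.60 and -0.20 to 0.52. The second FBN1 probe had a difference of 0.22 (SE 0.13, limma adjusted p = 0.227) and was not called. The calls of FBN1 and MFAP5 depended on few arrays. Without the male of batch 3 that was lowest for both (pig 40), left out after the values were seen, the differences were 0.25 and 0.27 with limma adjusted p-values of 0.0669 and 0.0674. Without the 7 females in doubt by EIF1AY they were 0.30 and 0.34, with adjusted p-values of 0.0607 and 0.0565, and the SFRP1 call remained in both cases.

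Within batches 1 and 3 the standard errors were larger than over all batches, at 0.38 and 0.37 for FBN1, against 0.11 in batch 2. In batch 2, which held most pigs, the differences were 0.35 for FBN1, 0.36 for MFAP5 and 0.32 for SFRP1, with limma adjusted p-values of 0.0137, 0.0254 and 0.00525. In batch 1 they were 0.00, 0.12 and 0.05, and in batch 3 they were 0.35, 0.52 and 0.28, and none was called in either. DPP4 had a difference of -0.28 in batch 1, -0.30 in batch 3 and 0.37 in batch 2, and none was called. A test of whether the sex difference itself differed among batches, with interaction terms, called 0 of the 6 genes and 0% of all probes. The lowest unadjusted p of this interaction test among the 6 was 0.305, for DPP4.

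**Figure D2:**
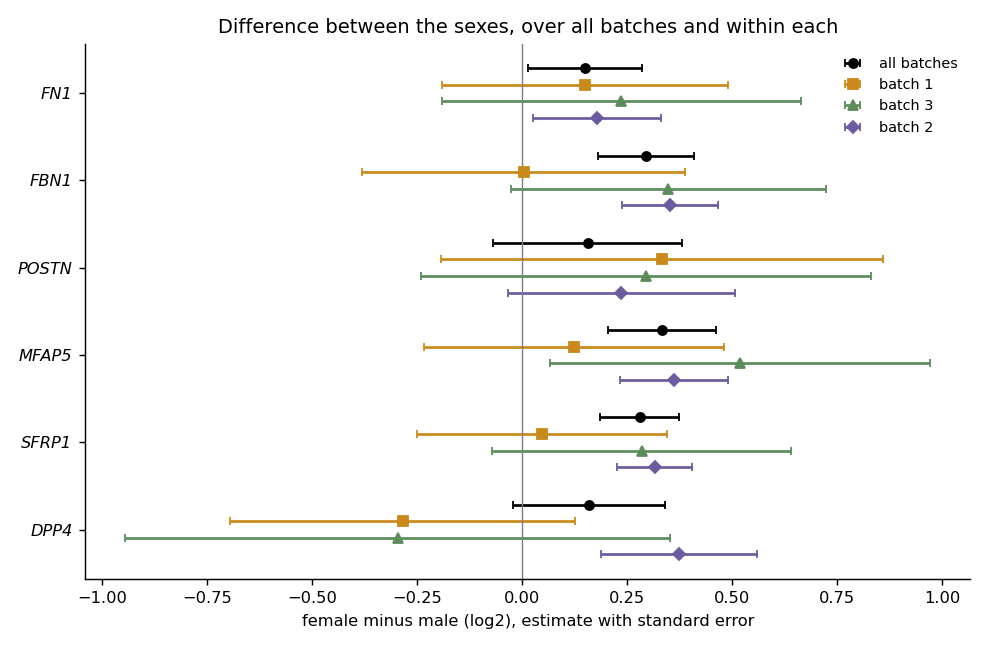
Difference between females and males (x axis, female minus male, log2) for each gene (y axis), over all batches and within each slaughter batch, with bars of 1 standard error. Estimates over all batches are 0.29 for FBN1, 0.33 for MFAP5 and 0.28 for SFRP1, and the bars within batches 1 and 3 are wider than within batch 2.

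Genes of the related lists were called in both directions between the sexes, where 26.1% of all probes were called. Of the 10 measured fibroblast and progenitor markers only 2 were called, DCN (0.27) and CXCL14 (0.47), both higher in females. Of 16 measured genes of matrix and collagen 4 were called, of which 2 were higher in females, namely type XV collagen (COL15A1, 0.46) and DCN (0.27), and 2 were lower, THBS1 (-0.62) and COL4A2 (-0.27). All 3 measured matrix receptors were lower in females, with DDR1, a collagen receptor, at -0.42, the proteoglycan SDC2 at -0.46 and the integrin subunit ITGA5, which binds fibronectin, at -0.44. Among 9 matrix proteases and inhibitors, fibroblast activation protein, a peptidase of the DPP4 family, was higher (0.45) and TIMP1 (-0.65), BMP1 (-0.46) and TIMP3 (-0.34) were lower. BMP1 had a mean log2 value of 3.11, lower than that of SFRP1 (3.37). Of 7 measured TGF-beta genes 6 were called, 4 higher and 2 lower. Follistatin (FST, 0.57) and myostatin (MSTN, 0.57), whose product follistatin binds, were both higher in females.

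Of 6 measured Wnt genes, the secreted antagonist DKK2 (0.50) and the transcription factor TCF7L1 (0.27) were higher in females. Markers of other cells moved too. SCD (0.77) and adiponectin (ADIPOQ, 0.65) of the 4 measured adipocyte markers were higher in females, and PECAM1 (-0.29), ESAM (-0.33) and TEK (-0.21) of 6 endothelial markers were lower. ADIPOQ had a mean log2 value of 2.95, lower than that of SFRP1 (3.37). None of 6 macrophage markers was called. The mean of the adipocyte list ranged from 6.17 to 8.93 in females (median 7.06), against 6.10 to 9.14 in males (median 6.75). The mean of the endothelial list ranged from 6.00 to 7.52 in females (median 6.75), against 5.99 to 8.54 in males (median 6.92). Their part in the differences of the 6 genes was not tested.

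The next comparison was of slaughter batches, which share everything done to the animals and samples of a batch. Of the 6 genes, DPP4 had the widest differences between batches, while POSTN was called in neither batch 1 nor batch 3 and FN1 in batch 1 alone. A moderated F test over both differences called 5 of the 6 genes, against 86.6% of all probes. The deposited table held probes that the authors had filtered for variation among pigs. The differences from batch 2 were called for 74.2% of all probes in batch 1 and 81.5% in batch 3, with median differences over all probes of -0.11 and -0.17. Both comparisons share the pigs of batch 2. Of the 6 genes, 5 were called higher in batch 1 and 4 in batch 3.

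DPP4 ranged from 4.04 to 6.90 in batch 1 (median 5.61), from 3.09 to 8.75 in batch 3 (median 5.97) and from 2.47 to 6.08 in batch 2 (median 4.05). The adjusted differences were 1.45 (SE 0.27) for batch 1 minus batch 2 and 1.76 (SE 0.25) for batch 3 minus batch 2, or 2.72 and 3.38 times, with limma adjusted p-values of 1.54e-06 and 6.4e-10. The upper parts of batches 1 and 3 lay above every pig of batch 2. Within females the differences were 1.11 and 1.33, and within males 2.06 and 2.27. The lowest DPP4 value of batch 2, 2.47 in a male, was below the lowest of SFRP1 (2.77), near the floor of the array. The size of the DPP4 folds and of the differences within males is uncertain for that reason. The interaction of sex and batch was not called (limma adjusted p = 0.778).

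FBN1 ranged from 8.67 to 11.19 in batch 1 (median 10.68), from 7.86 to 11.25 in batch 3 (median 10.14) and from 8.30 to 10.24 in batch 2 (median 9.33). Its adjusted differences were 1.099 (SE 0.17) and 0.68 (SE 0.16), or 2.14 and 1.60 times, with limma adjusted p-values of 1.59e-08 and 5.74e-05. MFAP5 ranged from 7.75 to 10.03 in batch 1 (median 9.37), from 6.06 to 10.62 in batch 3 (median 9.49) and from 7.49 to 9.78 in batch 2 (median 8.47). It differed by 0.71 (SE 0.19) in batch 1 and 0.60 (SE 0.18) in batch 3, with adjusted p-values of 0.000577 and 0.00137. Some pigs of batches 1 and 3 were among the lowest for both genes.

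SFRP1 had medians of 3.77 in batch 1, 3.48 in batch 3 and 3.10 in batch 2, and highest values of 4.57, 5.19 and 4.96. Its differences were 0.59 (SE 0.14) and 0.53 (SE 0.13), with limma adjusted p-values of 0.000122 and 0.000123. FN1 had medians of 10.72 in batch 1, 10.09 in batch 3 and 10.03 in batch 2. It differed by 0.51 (SE 0.20, limma adjusted p = 0.0189) in batch 1 and by -0.05 (SE 0.19, adjusted p = 0.804) in batch 3. POSTN had medians of 5.59, 5.54 and 4.88 in batches 1, 3 and 2, and its differences of 0.59 (SE 0.33) and 0.54 (SE 0.31) were not called, with adjusted p-values of 0.101 and 0.0954.

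The probes of FBN1 disagreed on batch. The second probe had medians of 8.70 in batch 1, 7.74 in batch 3 and 8.13 in batch 2, so that its adjusted difference was 0.18 (SE 0.20, limma adjusted p = 0.422) in batch 1 and -0.53 (SE 0.18, adjusted p = 0.00637) in batch 3, opposite in sign to the first probe. The gap between the 2 probes was 2.15 ± 0.68 in batch 1, 2.45 ± 0.43 in batch 3 and 1.19 ± 0.33 in batch 2 (SD), and it differed among batches in a permutation test of the batch labels (p = 1e-05, the smallest that 100000 permutations can give). Within batches the probes moved together, with r of 0.715, 0.870 and 0.817 in batches 1, 3 and 2 after sex and weight. The batch difference of FBN1 therefore depends on the probe that is read.

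**Figure D3:**
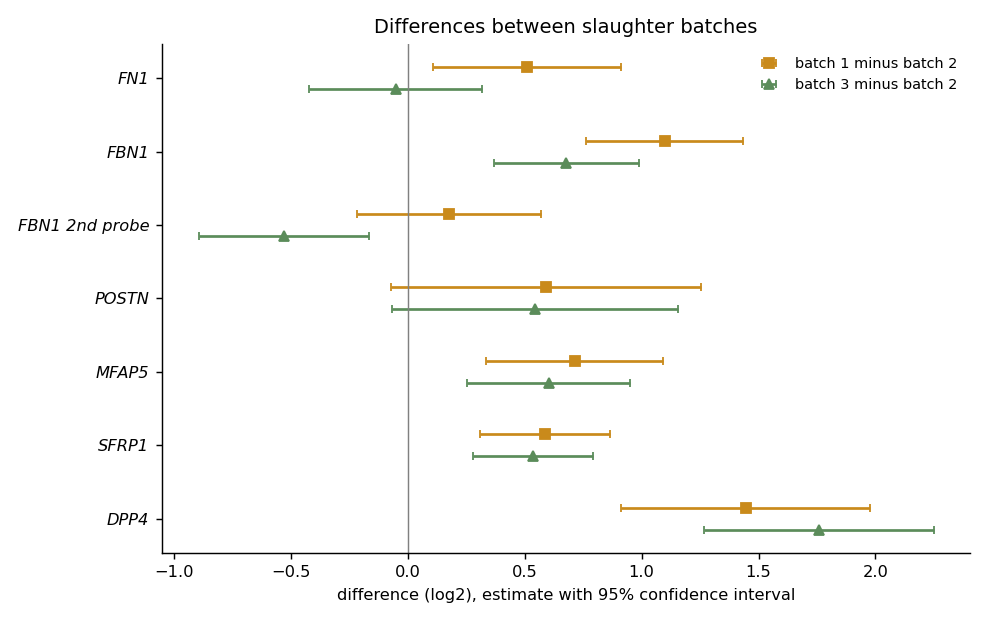
Differences between slaughter batches (x axis, log2, with 95% confidence intervals) for each gene and for the second probe of FBN1 (y axis), batch 1 minus batch 2 and batch 3 minus batch 2. DPP4 has the largest differences, 1.45 and 1.76, and the second FBN1 probe lies at -0.53 in batch 3, where the first lies at 0.68.

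The difference between the 5 prime and middle probes of the actin control, a proxy for RNA integrity, had a mean of -1.28 among pigs of batch 1, -1.32 among those of batch 3 and -0.80 among those of batch 2, on the log2 scale. Within the model, the residuals of DPP4 correlated with it at r = -0.453 and those of SFRP1, MFAP5, FBN1, FN1 and POSTN at -0.295, -0.277, -0.270, -0.186 and 0.016. With this difference as a further effect the F test called 3 of the 6 genes, since FN1 and MFAP5 no longer passed. The batch 1 difference of FN1 was then 0.34 (limma adjusted p = 0.170). That of MFAP5 was 0.47 in batch 1 (adjusted p = 0.0362) and 0.34 in batch 3 (adjusted p = 0.108). DPP4 remained called, with differences of 0.89 in batch 1 and 1.15 in batch 3, and so did SFRP1, with 0.40 and 0.33. The 86.6% of all probes given for the F test is from the fit without the actin difference. The gap between the FBN1 probes had r = 0.012 with the actin difference after sex, batch and weight (permutation p = 0.906).

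Genes of the related lists also differed in both directions. Of 16 matrix and collagen genes 12 were called in each batch, near the share of all probes (74.2% and 81.5%), with 8 higher and 4 lower in batch 1, and 5 higher and 7 lower in batch 3. Asporin (ASPN, 1.14), LUM (0.86) and nidogen-2 (NID2, 0.82) were higher in batch 1, and type III collagen (COL3A1, 1.31) was higher in batch 3, where the laminin subunit LAMC1 (-1.27) and tenascin-X (TNXB, -1.46) were lower. Of the 10 fibroblast and progenitor markers, 4 were higher and 2 lower in batch 1, and 3 were higher and 3 lower in batch 3. CD55 was higher in both (1.32 and 0.51), and GSN was lower in both (-0.58 and -0.88).

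The counts that follow stand against 74.2% of all probes called in batch 1 and 81.5% in batch 3. The macrophage, adipocyte and endothelial lists had smaller shares called than all probes in both batches. Of 9 matrix proteases and inhibitors, 3 were higher and 5 lower in batch 1, and 1 was higher and 5 lower in batch 3. Fibroblast activation protein (FAP) was higher in both (0.60 and 0.80), and ADAMTS1 was higher in batch 1 (0.86). The protease MMP2 (-1.26 in batch 1 and -1.52 in batch 3) and its inhibitor TIMP2 (-1.19 and -1.14) were lower in both. Macrophage markers were higher in 4 of 6 cases in batch 1, among them MRC1 (1.26), and their list mean ranged from 4.19 to 7.70 in batch 1 (median 6.01), from 4.57 to 6.399 in batch 3 (median 5.58) and from 4.14 to 7.25 in batch 2 (median 5.55). In batch 3, 2 of the 6 macrophage markers were higher and 2 lower, the lower ones being C1QA (-0.97) and C1QC (-0.81). None of the 4 adipocyte markers was called in batch 1, and in batch 3 FABP4 was higher (0.60) and LPL lower (-0.49). Of 6 endothelial markers, 2 were higher and 1 lower in batch 1, and 3 were lower in batch 3, namely ESAM (-0.83), VWF (-0.78) and CLDN5 (-0.65). Of 4 smooth muscle and pericyte markers, 1 was higher and 1 lower in batch 1, and in batch 3 DES (-1.28), CNN1 (-1.27) and TAGLN (-0.65) were lower and RGS5 higher (0.33). DES is also on the skeletal muscle list. The part of these cell types in the batch differences of the 6 genes was not tested.

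Carcass weight was tested as a slope per 10 kg, adjusted for sex and batch. Slopes lay between -0.10 for MFAP5 and 0.04 for SFRP1, and the test called 0 of the 6 genes, against 0% of all probes. None of the 6 had an unadjusted p under 0.05, whereas 589 of all probes did. The interval of DPP4 was -0.29 to 0.09 per 10 kg. The slope of DPP4 was -0.33 (SE 0.11) in females and 0.12 (SE 0.15) in males, but the test of a difference in slope called 0 of the 6 genes and 0% of all probes, and DPP4 had an unadjusted p of 0.116. Without batch and sex in the model, the slopes of FBN1, MFAP5 and DPP4 were called, at -0.26, -0.24 and -0.39. Mean carcass weight was 65.9 kg for batch 1 and 64.6 kg for batch 3, against 73.3 kg for batch 2.

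Age was tested as a slope per day in the same model. It called 0 of the 6 genes, against 0.312% of all probes (17). At an unadjusted p under 0.05 it would have called 2 of the 6, POSTN and FN1, and 714 of all 5449 probes. POSTN had the steepest slope, -0.20 per day (SE 0.06, unadjusted p = 0.000677, limma adjusted p = 0.0686), and FN1 followed with -0.10 per day (SE 0.04, adjusted p = 0.127). In batch 1, the 5 pigs of 171 days had POSTN values from 5.09 to 7.82, with a median of 6.75. The 8 pigs of 177 days had values from 4.48 to 6.45 (median 5.13), and the 1 pig of 181 days had 3.24. The older pigs of that batch tended to the low end, but the ages overlapped. The pigs of batch 2 were 178 to 184 days old and those of batch 3 were 178 to 181 days old. Age and batch 1 therefore largely coincide, and their parts cannot be told apart here. With age in the model, the difference of FN1 between batch 1 and batch 2 was -0.03, against 0.51 without it. That of POSTN, called in neither model, was -0.46, against 0.59 without age. MFAP5 lost its call in batch 1, with a difference of 0.50 (limma adjusted p = 0.0856).

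The pigs were then used as a panel to see which genes varied together. Residuals after sex, batch and weight were correlated over the 102 pigs, in 15 pairs of the 6 genes. Each p came from 100000 permutations, and adjusted values came from limma slopes over all probes. All 15 r were positive, and 12 pairs were called after adjustment. FN1, FBN1 and MFAP5 each moved with 5 of the other 5 genes, against 22.1%, 49.1% and 35.8% of all probes that moved with them in either direction. POSTN moved with 3 of 5 (16.9% of all probes), SFRP1 with 3 (17.5%) and DPP4 with 3 (46.0%).

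The 4 matrix genes moved together most closely. FBN1 and MFAP5 had r = 0.869 (rho = 0.837), FN1 and MFAP5 had r = 0.799 (rho = 0.771), and FN1 and FBN1 had r = 0.767 (rho = 0.727). POSTN correlated with FN1 at r = 0.718 (rho = 0.678), with FBN1 at 0.642 (rho = 0.664) and with MFAP5 at 0.591 (rho = 0.598). The permutation p of each of these 6 pairs was 1e-05, the smallest that 100000 permutations can give, for r and for rho. Over the 6 pairs, r ranged from 0.626 to 0.950 in batch 1, from 0.604 to 0.973 in batch 3 and from 0.606 to 0.782 in batch 2. Once the 2 pigs most distant from the first gene's median were dropped, r ranged from 0.591 to 0.838. Without pig 40, the r ranged from 0.587 to 0.848. The second FBN1 probe had r = 0.779 with MFAP5, 0.690 with FN1 and 0.638 with POSTN over all pigs.

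**Figure D4:**
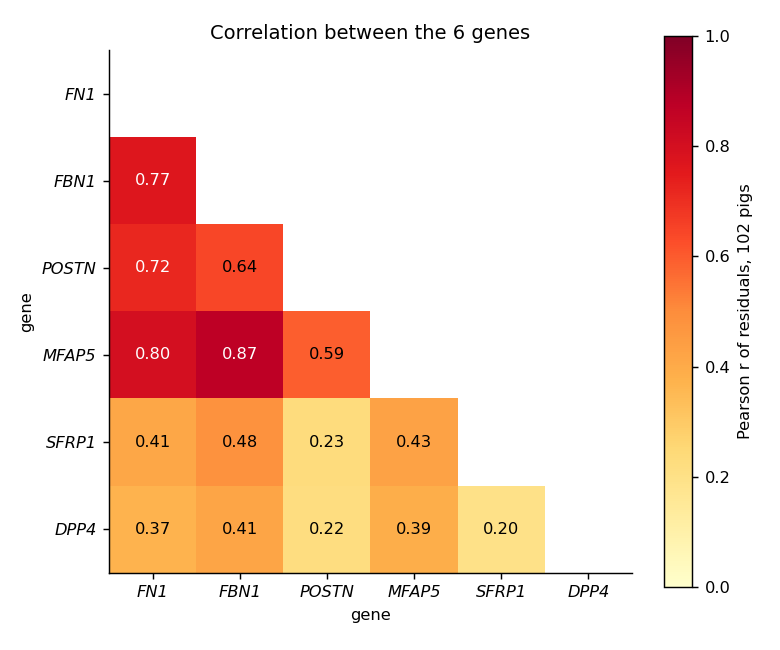
Pearson r between the residuals of each pair of the 6 genes over 102 pigs, after sex, slaughter batch and carcass weight. Rows and columns are genes and the colour scale runs from 0 to 1. The 6 pairs among FN1, FBN1, POSTN and MFAP5 lie between 0.59 and 0.87, and the 9 pairs with SFRP1 or DPP4 between 0.20 and 0.48.

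SFRP1 and DPP4 followed the matrix genes less closely. SFRP1 had r = 0.481 with FBN1 (rho = 0.428), 0.426 with MFAP5 (rho = 0.331) and 0.412 with FN1 (rho = 0.372), with permutation p-values of 2e-05, 3e-05 and 4e-05. Its r with POSTN was 0.230 (rho = 0.199, permutation p = 0.0198 for r), which was not called after adjustment. In batches 1, 3 and 2, SFRP1 had r = 0.450, 0.615 and 0.366 with FBN1. With MFAP5 these r were 0.365, 0.518 and 0.358, and with FN1 0.554, 0.617 and 0.250. Most SFRP1 values lay close to the floor of the array, which limits how its r can be read. DPP4 had r = 0.415 with FBN1 (rho = 0.347), 0.388 with MFAP5 (rho = 0.315) and 0.369 with FN1 (rho = 0.236), with permutation p-values of 3e-05, 8e-05 and 0.0001. Its r with POSTN (0.222, rho = 0.198) and SFRP1 (0.196, rho = 0.105) did not pass after adjustment. The second FBN1 probe had smaller r than the first, 0.274 with SFRP1 and 0.271 with DPP4 (limma adjusted p = 0.0375 and 0.0174). The size of these FBN1 correlations therefore depends on the probe that is read.

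The DPP4 pairs differed in size among batches. With FBN1, DPP4 had r = 0.062 in batch 1, 0.709 in batch 3 and 0.294 in batch 2, and with MFAP5 it had -0.149, 0.705 and 0.264. With FN1 it had 0.020, 0.731 and 0.211. The array with the low median correlation is in batch 3 and had the highest DPP4 value (8.75). Without it, r over all pigs was 0.396, 0.368 and 0.343 for FBN1, MFAP5 and FN1, and without pig 40 it was 0.345, 0.296 and 0.288. In females the r were 0.253, 0.224 and 0.154, and in males 0.490, 0.493 and 0.540. The difference between the sexes in these r was not tested.

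**Figure D5:**
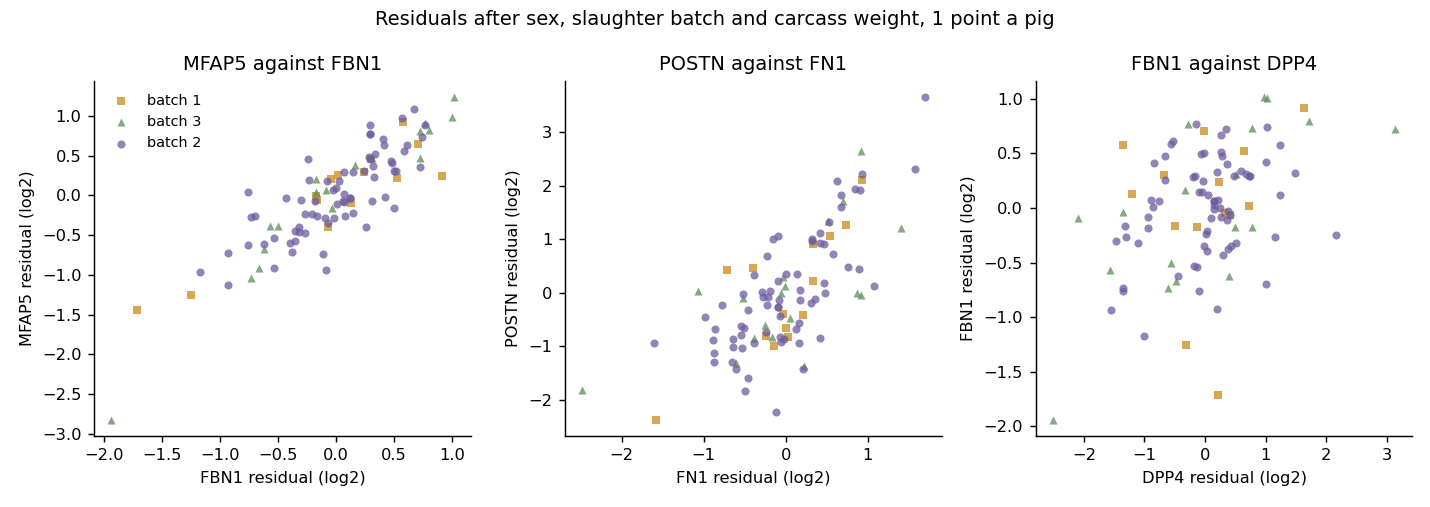
Residuals on the log2 scale after sex, slaughter batch and carcass weight, with 1 point per pig and batches marked by symbol, for MFAP5 against FBN1, POSTN against FN1 and FBN1 against DPP4 (y against x axis). The first panel is a narrow band (r = 0.869), the second is wider (0.718) and the third is a loose cloud (0.415).

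For each gene, the 3 genes of the array with the highest r and the 3 with the lowest r were taken over the 102 pigs. They were picked for their r in the same pigs, so r describes them and their p-values are no independent evidence. For each of these 36 pairs, the permutation p of r was 1e-05, and r had the same sign in all 3 batches. FBN1 was most like decorin (DCN, r = 0.887, rho = 0.873), a collagen-binding proteoglycan, then MFAP5 and MXRA7 (r = 0.842). MFAP5 was most like FBN1, PCOLCE2 (0.812), an enhancer of procollagen processing, and DCN (0.799). FN1 was most like MFAP5, CCDC80 (0.782) and ASPN (0.768), and POSTN was most like CCDC80 (0.729), FN1 and DCN (0.683).

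At the other end, the palmitoyltransferase ZDHHC9 appeared for FBN1 (r = -0.646), POSTN (-0.520) and FN1 (-0.513), and the proteasome subunit PSMD2 for FBN1 (-0.626) and MFAP5 (-0.583). Over the 6 most alike genes of FBN1, r without the 2 farthest pigs was 0.553 to 0.866 in size, against 0.615 to 0.887 with them. For FN1 the sizes were 0.451 to 0.761, for MFAP5 0.492 to 0.838 and for POSTN 0.457 to 0.729.

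DPP4 had other neighbours. It was most like ACAA2 (r = 0.660, rho = 0.677) and HADHB (r = 0.647, rho = 0.616), enzymes of mitochondrial fatty acid oxidation, and TSPAN13 (r = 0.642, rho = 0.594). ACAA2 correlated with DPP4 at r = 0.856 in batch 1, 0.722 in batch 3 and 0.594 in batch 2. The most negative were MID1IP1 (-0.624), which promotes fatty acid synthesis, ABCF2 (-0.576) and PYGM (-0.572), the glycogen phosphorylase of muscle. Without the 2 farthest pigs the 6 sizes ranged from 0.489 to 0.665. The DPP4 residuals also had r = -0.453 with the actin difference, the proxy for RNA integrity. Of all probes, 46.0% were called with DPP4. The part of RNA integrity in the r of these neighbours was not tested.

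SFRP1 was most like ENPP2 (r = 0.578, rho = 0.459), which makes lysophosphatidic acid, KDELR3 (0.528) and the fatty acid elongase ELOVL6 (0.527, rho = 0.454). ENPP2 had a mean log2 value of 3.10, close to the lowest values of the array. ELMOD3 (-0.507), PSMF1 (-0.505) and SNX12 (-0.497) were the most negative. For SFRP1 rho was smaller than r throughout, at 0.321 to 0.459 in size, against 0.497 to 0.578.

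The called genes of the matrix and fibroblast lists all rose with the 6 genes. Of the 16 measured genes of matrix and collagen, 13 rose with FN1, 13 with MFAP5, 12 with FBN1, 11 with POSTN, 6 with DPP4 and 6 with SFRP1, and none fell with any of them. The shares of all probes called in either direction were 22.1%, 35.8%, 49.1%, 16.9%, 46.0% and 17.5% in the same order. Over all probes the calls ran both ways. With FN1 839 rose and 366 fell, with FBN1 1316 rose and 1361 fell, and with DPP4 1314 of 5448 rose and 1193 fell. For DPP4 the 6 of 16 lay below the share called in either direction, but not below the share that rose. Slopes were taken per SD of the residual of each of the 6 genes. The median slope of the list was 0.33 on FN1, 0.32 on FBN1 and 0.09 on DPP4, against 0.00 (to 2 decimals) for each over all probes. DCN, ASPN, NID2 and LUM had the smallest p-values with FBN1, at r = 0.89, 0.81, 0.75 and 0.74.

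Of the 10 other fibroblast and progenitor markers, 9 rose with FN1, 8 each with FBN1, MFAP5 and POSTN, 4 with SFRP1 and 3 with DPP4. Over all probes, 1314 of 5448 rose with DPP4, and 46.0% were called with it in either direction. This list shares DCN, LUM and COL3A1 with the matrix list. Insulin-like growth factor binding protein 6 (IGFBP6) had r = 0.70 with MFAP5 and 0.67 with FN1, and THY1, a surface glycoprotein of fibroblasts, had r = 0.67 with FN1. With DPP4 the called markers were CD55 (r = 0.33), DCN (0.31) and dermatopontin (DPT, 0.30). Fibroblast activation protein rose with all 6 genes, with r = 0.83 with FBN1, 0.69 with MFAP5, 0.65 with POSTN, 0.64 with FN1, 0.35 with DPP4 and 0.32 with SFRP1.

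Of the 7 measured genes of TGF-beta signalling, 4 were called with FBN1, 3 rising and 1 falling, led by the receptor TGFBR1 (r = 0.40). With POSTN 3 rose, while 1 was called with each of FN1, MFAP5 and DPP4 and none with SFRP1. The shares of all probes called were 49.1% with FBN1, 16.9% with POSTN and 22.1% with FN1. They were 35.8% with MFAP5, 46.0% with DPP4 and 17.5% with SFRP1. The muscle growth regulators FST (0.41) and MSTN (0.34) rose with POSTN. Of the 6 measured Wnt genes, DKK3 and TCF7L1 rose with SFRP1 (r = 0.46 and 0.32) and also with FBN1 (0.45 and 0.47), FN1 (0.45 and 0.45) and MFAP5 (0.40 and 0.30). The matrix receptor DDR1 fell with FBN1 and MFAP5 (r = -0.41 each), DPP4 (-0.40), FN1 (-0.28) and POSTN (-0.27). Of the other measured receptors, SDC2 rose with MFAP5 (r = 0.46), FN1 (0.39) and DPP4 (0.30), and ITGA5 fell with DPP4.

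Markers of other cells were also called with these genes. Of all probes, 22.1% were called with FN1, 49.1% with FBN1 and 16.9% with POSTN, in either direction. With MFAP5, SFRP1 and DPP4 the shares were 35.8%, 17.5% and 46.0%. ADIPOQ, 1 of the adipocyte markers, had a low mean log2 value (2.95). All 4 measured adipocyte markers rose with FN1 and with MFAP5, and 3 of 4 with FBN1, POSTN and SFRP1, with FABP4 at r = 0.49 with FN1 and SCD at r = 0.44 with FBN1. All 6 measured macrophage markers rose with FN1 and with POSTN, with MRC1 at r = 0.63 and 0.52. Of the 6 endothelial markers, 4 rose with DPP4, led by PECAM1 (r = 0.49), and 3 with FN1. The pericyte marker RGS5 rose with FN1, FBN1, POSTN, MFAP5 and DPP4, with r from 0.36 to 0.56. Of the 4 measured smooth muscle and pericyte markers it was the only one called with MFAP5 and with POSTN. With FN1, TAGLN (0.41) and CNN1 (0.29) rose too, whereas CNN1 fell with DPP4 (-0.27) and DES, also on the skeletal muscle list, fell with FBN1 (-0.34). Of the 5 measured skeletal muscle genes, 4 rose with DPP4, which were the slow-fibre genes TNNT1 (r = 0.50), TNNC1 (0.38), TNNI1 (0.34) and MYL3 (0.26), and none rose with the other 5 genes, of which only FBN1 had a called gene, DES (r = -0.34). The difference between DPP4 and the other genes in these r was not tested. The part of these cells or fibres in the correlations was not tested either.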

How the data were processed

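Longissimus dorsi RNA of 102 pigs was hybridised to the Affymetrix GeneChip Porcine Genome Array. The authors deposited log2 intensity values after GCRMA, in which background and probe affinity are corrected and the arrays are made alike. Arrays have no read depth, so precision is set by how many pigs there were. The table held 5493 rows, of which 44 controls were left out and 5449 tested. Of these, 2639 had 1 gene symbol, 49 had several and 2761 had none here. Each probe was fitted in limma 3.58.1 (R 4.3.3) with sex, slaughter batch (3 levels) and carcass weight, the systematic effects of the study's model. The polygenic effect of that model was left out, and the pigs, though related, entered as independent. P-values were adjusted by Benjamini-Hochberg over all probes and called under 0.05. The fits were checked on simulated data. Correlations used residuals of that model and 100000 permutations (Python 3, numpy, scipy). The members and gene lists were chosen with earlier results of these data known. Named genes were the 6 members, the 3 genes with the largest positive and the 3 with the largest negative r for each, and up to 4 called genes with the smallest p per list, by 1 probe per gene. Lists for lymphocytes, red blood cells and tendon had no gene measured here. Alternatives covered normalization, covariates, batches, arrays, filters and the adjustment. Coordinates are not given, because no genome build for the probes is given in the sources used here.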

Additional observations from a re-analysis of the deposited data

Results flagged for a closer look

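Dixon's ratio was tested in the 3 groups of sex and batch with 6 to 8 pigs, for 7 probes, which made 21 tests, and 3 exceeded the 95% critical value. Chance alone gives about 1 in 20. Among the 8 females of batch 1, 1 pig had an FBN1 value of 9.34, far below the others, and the median of the group was 10.59. Among the 6 males of batch 1, 1 pig had an MFAP5 value of 7.75, against a group median of 9.35, and the same pig was among the 10 lowest of all pigs for FN1 and FBN1 too. Among the 7 males of batch 3, 1 pig had an SFRP1 value of 5.01, against a group median of 3.16.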

How the results depend on the processing

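The sex comparison called 3 of the 6 genes as reported and 1 without the arrays in doubt by EIF1AY, with Benjamini-Yekutieli adjustment at 0.20, with the mean of the spike-in controls as a further effect and without pig 40. The last pair of settings, and leaving out the array with a median r under 0.8, were added after seeing the data. The batch comparison called 5 as reported and 3 with the actin difference. The shares of all probes given for sex (26.1%) and batch (86.6%) are from the fits as reported. Whether calls over all probes fell likewise under these other settings is not given here. Carcass weight called 0 as reported and 3 with no other covariates. Age called 0 as reported, 1 (POSTN) with 2 principal components, with the actin difference and without batch 3, and 5 with no other covariates. Over all probes, age called 17 as reported, 0 in batch 2 alone or without batch 1, 4 with array weights, 9 with Benjamini-Yekutieli adjustment, 38 with batch as a random block, 44 without pig 40, 73 without batch 3, 83 with the actin difference, 215 with the components and 2633 with no other covariates. Weight called 0 as reported, 2 without batch 1 and without the low array, 126 with array weights, 258 with the components and 3412 with no other covariates, and its interaction with sex 0 as reported and 13 with array weights. The causes were not tested. Of the values of single genes for sex under other settings, 91 kept their direction and side of the threshold and 10 lost the call. The difference of FN1 between batch 1 and batch 2 reversed to -0.0320 with age in the model, where that of POSTN was -0.458 and MFAP5 lost its call (0.505), and the r of SFRP1 and DPP4 to -0.00241 in batch 2 alone. Age and batch 1 largely coincide, so the changes with age in the model cannot be assigned to either. Every pair among FN1, FBN1, POSTN and MFAP5 kept its sign and its permutation p under 0.05 in the settings run. Over all 15 pairs and these settings, 144 values of r kept both, 20 lost the permutation p under 0.05 and 1 reversed. No paired analysis was possible because females and males share no animal numbers. Values near the floor of the array, as for SFRP1 and the lowest values of DPP4, limit the size of any difference that can be seen.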
